A study of Sus scrofa with 12 samples.

Results

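The genes described are 4 beta tubulin genes, TUBB3, TUBB2A, TUBB2B and TUBB6, and 3 genes used as markers of neural progenitors, PAX6, NES and NCAM1. They were taken from a table of 30012 loci by gene symbol or, for TUBB2A, by the symbol in the locus description, and the locus with the highest mean was used where a symbol had several. A row was found for each of the 7, that of TUBB2A on a locus named TUBB. All 7 rows passed the filter of at least 1 FPKM in at least 3 libraries, PAX6 through the fibroblasts alone. The set was selected on measured values, chosen by the FPKM of TUBB3, which in parthenogenetic line ESC3 exceeded that in parthenogenetic line ESC7. For that pair of lines the values of all 7 genes are therefore given as a description without a test, as are those of TUBB3 in each comparison that involves ESC3 or ESC7. The question asked of these genes was whether the excess of TUBB3 in ESC3 was shared by other tubulins or by other genes of the neural lineage.

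Messenger RNA was sequenced from 4 groups of pig cells with 3 libraries each. The fibroblasts came from a fetus at day 30 after conception and were collected at passage 6. ESC11 is an embryonic stem cell (ESC) line from an embryo fertilised in vitro, and ESC3 and ESC7 are lines from parthenogenetic embryos, which carry no paternal genome. All 3 ESC lines grew on feeder cells in a serum-replacement medium. It held 2 growth factors, 20 ng/mL of FGF2 and 5 ng/mL of ActA (activin A), with 1.5 µM of CH and 2.5 µM of IWR-1, a Wnt pathway inhibitor. The kinase inhibitor Y-27632 was present at 10 µM for 24 h before and 24 h after each passage. Before RNA extraction the ESCs were sorted on magnetic columns for the surface antigen SSEA1, a step meant to remove differentiated cells and feeders. Each ESC group is 1 line, so a difference between ESC3 and ESC7 is a difference between a pair of lines of the same origin. The labels do not say whether libraries within a group were grown as separate cultures. The p-values thus reflect library-to-library spread alone, part of which may be technical.

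Microtubules are hollow polymers of alpha and beta tubulin, and mammals encode each subunit in several genes, the isotypes. TUBB3 encodes the class III isotype, which is widely used as a marker of newborn neurons but is also made by other cells. TUBB2A and TUBB2B encode class II isotypes that are abundant in brain, TUBB encodes the broadly expressed class I isotype, and TUBB6 encodes class V, which is broad outside the brain. PAX6 is a paired-box transcription factor of the neural tube and eye. NES encodes nestin, an intermediate filament of neural stem cells that mesenchymal and muscle precursors also make, and NCAM1 encodes a neural cell adhesion molecule with a similar breadth of use.

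Levels are given as FPKM, a measure the authors computed that divides the fragments of a locus by its transcript length and by the size of the library. Coordinates are on the pig build Sscrofa10.2 as the deposited table gives them. TUBB3 lies on chromosome 6 from 259395 to 268749 on the plus strand. TUBB6 lies on chromosome 6 from 90808417 to 90814582, and a second row of that name was at 0 in every library. The row taken for TUBB2A lies on chromosome 7 from 26969702 to 26974207. It is described as TUBB2A, but the table's own symbol and the gene-name reference both call it TUBB, so it is called the TUBB locus here and a separate TUBB2A locus was not analysed here. TUBB2B lies on chromosome 7 from 1987023 to 2016685, a span of 29663 bp. Whether that span holds fragments of a further gene was not tested. Reads from near-identical tubulin copies can be split between loci, and how the authors treated them is not given in the sources used here, so levels of single tubulin loci are uncertain to that extent. PAX6 lies on chromosome 2 from 31478580 to 31508162, and NCAM1 on chromosome 9 from 45463367 to 45795212. The NES locus runs on chromosome 4 from 101984522 to 102074342, a span of 89821 bp that overlaps the neighbouring TTC24 locus, so fragments of both may be mixed in its value.

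The libraries carried the markers of their labels. The 10 pluripotency markers summed to between 2713 and 3093 FPKM in the 9 ESC libraries and to at most 1.86 FPKM in fibroblasts. The 12 fibroblast and feeder markers summed to between 10994 and 11467 FPKM in fibroblasts and to between 28.1 and 46.1 FPKM in ESCs. Each library had between 21898 and 24100 loci above 0, with median FPKM between 4.59 and 5.05. The summed FPKM ranged from 2376000 to 7715500, and loci with spans under 300 bp held between 54.8% and 80.6% of it. The depth behind the values is unknown, since the table holds no counts.

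TUBB3 was the member that separated the ESC lines most. Its FPKM was 113, 112 and 122 in the 3 fibroblast libraries and 142, 143 and 133 in ESC11. In ESC3 it was 262, 245 and 227, and in ESC7 41.1, 44.4 and 48.5. No 2 of the 4 groups overlapped, and their order was ESC3, ESC11, fibroblasts and ESC7. The means were 245 ± 17.4 (SD, n = 3) in ESC3, 139 ± 5.15 in ESC11, 116 ± 5.33 in fibroblasts and 44.7 ± 3.71 in ESC7. TUBB3 RNA was therefore not restricted to the stem cells: fibroblasts held 2.59 times the level of ESC7.

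**Figure D1:**
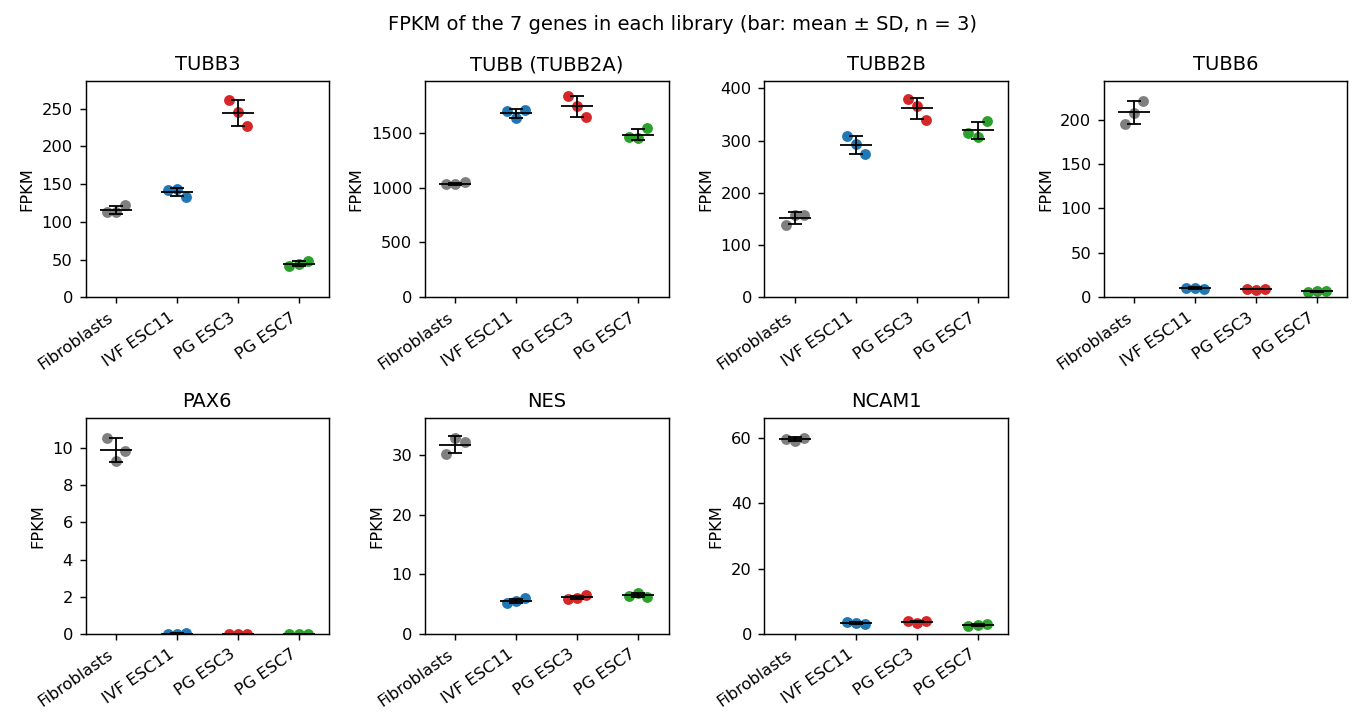
FPKM of the 7 genes in each of the 12 libraries, 1 panel per gene, with points for libraries and bars for the group mean and SD (IVF, fertilised in vitro; PG, parthenogenetic). Each vertical axis starts at 0 and has its own scale, and TUBB3 has 4 separate levels with ESC3 highest (mean 245) and ESC7 lowest (mean 44.7), whereas TUBB6, PAX6, NES and NCAM1 have one high group, the fibroblasts.

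As a description, mean TUBB3 was 5.47 times as high in ESC3 as in ESC7. On the log2(FPKM + 1) scale, which is used for all differences here, ESC7 lay below ESC3 by -2.43 ± 0.07 (SE from limma). Of 18278 tested loci, 43 had a difference this low or lower, which is 0.235%. ESC11 lay between the parthenogenetic lines. As deposited, ESC3 was above it by 0.81 and ESC7 was below it by -1.62, so TUBB3 departed from the fertilised line in both parthenogenetic lines, in opposite directions. With every library scaled to the same sum, both lay below ESC11, by -0.53 in ESC3 and -2.66 in ESC7. Relative to the median of all loci under that scaling, TUBB3 stood at 0.63 in ESC3 and -1.80 in ESC7. The fertilised line shares these 2 comparisons as their common reference.

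The comparison of TUBB3 between ESC11 and fibroblasts was not used to choose the gene and was tested. The difference was 0.27 ± 0.07 (limma, Benjamini-Hochberg adjusted p = 0.00446), a 1.20-fold higher mean in ESC11, which is under the minimum log2 difference of 1 that a call requires. Its sign depended on the scaling of the libraries: with median-ratio scaling it was -0.16. The median tested locus differed by 0.39 in that comparison as deposited, and relative to it TUBB3 was at -0.13.

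The TUBB locus was the most abundant of the beta tubulin loci in every group. Its FPKM was 1030, 1031 and 1046 in fibroblasts, 1693, 1630 and 1703 in ESC11, 1835, 1744 and 1646 in ESC3, and 1457, 1452 and 1540 in ESC7. Fibroblasts were lowest, ESC7 came next, and the libraries of ESC3 and ESC11 overlapped. The differences from fibroblasts were 0.69 in ESC11 (limma adjusted p = 2.766e-06), 0.75 in ESC3 (limma adjusted p = 1.433e-06) and 0.52 in ESC7 (limma adjusted p = 3.036e-05), all under the minimum difference for a call. With median-ratio scaling the value in ESC7 was 0.04. Against ESC11 neither parthenogenetic line passed the test, with 0.05 in ESC3 (95% interval -0.09 to 0.20; limma adjusted p = 0.6175) and -0.18 in ESC7 (95% interval -0.33 to -0.03; limma adjusted p = 0.07275). As a description, ESC3 held 1.17 times the level of ESC7, beside the 5.47-fold ratio of TUBB3.

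TUBB2B was higher in the ESC lines than in fibroblasts. Fibroblasts had an FPKM of 139, 158 and 157, against 309, 294 and 275 in ESC11, 380 in the highest ESC3 library with 365 and 340 in the others, and 314, 307 and 338 in ESC7. Fibroblasts did not overlap with any line, ESC7 overlapped with ESC11, and ESC3 was above both. The difference from fibroblasts was called in ESC3 (1.25, limma adjusted p = 2.664e-08) and ESC7 (1.07, limma adjusted p = 9.934e-08), and in ESC11 it was 0.94 (limma adjusted p = 2.904e-07), just under the minimum. These 2 calls rest on the scaling, since with median-ratio scaling the differences were 0.79 and 0.60.

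Among the lines, TUBB2B was above ESC11 by 0.31 in ESC3 (limma adjusted p = 0.01069), less than the minimum for a call, while in ESC7 the difference was 0.13 (95% interval -0.03 to 0.29; limma adjusted p = 0.1932). As a description, ESC3 held 1.13 times the level of ESC7.

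TUBB6 had the reverse distribution. Its FPKM was 195, 208 and 221 in fibroblasts and 10.7, 10.7 and 9.11 in ESC11, 9.45, 8.64 and 9.24 in ESC3, and 5.88, 6.60 and 7.25 in ESC7. Fibroblasts stood far above every ESC library, ESC3 overlapped with ESC11, and ESC7 was below both. TUBB6 fell relative to fibroblasts in each line, with log2 differences of -4.23 in ESC11, -4.37 in ESC3 and -4.79 in ESC7 and limma adjusted p-values of 5.733e-12, 4.458e-12 and 2.348e-12. It was also below ESC11 in ESC7 by -0.56 (limma adjusted p = 0.000627), under the minimum for a call. As a description, ESC3 held 1.38 times the level of ESC7.

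The isotype mixture therefore differed between the groups. TUBB3 made up 7.01% ± 0.20 (SD, n = 3) of the summed beta tubulin FPKM in fibroblasts, 5.54% ± 0.21 in ESC11, 8.87% ± 0.11 in ESC3 and 2.01% ± 0.11 in ESC7. The TUBB locus held 62.8%, 66.5%, 63.2% and 66.7% in the same order. TUBB6 held 12.6% in fibroblasts and between 0.295% and 0.404% in the lines.

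**Figure D2:**
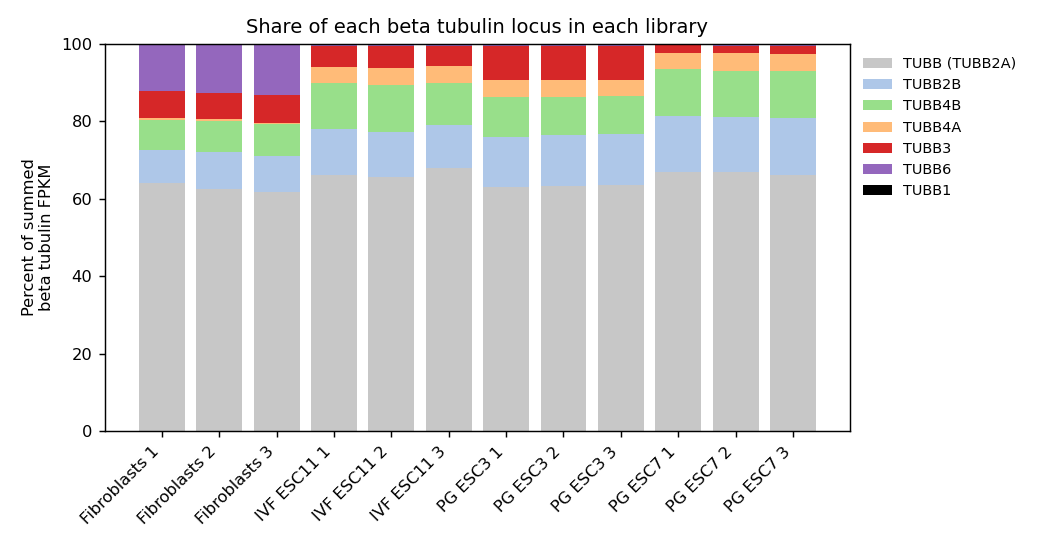
Share of each beta tubulin locus in the summed beta tubulin FPKM (percent, vertical axis from 0 to 100) in each of the 12 libraries, stacked by isotype. The TUBB locus holds most of every bar, the TUBB6 segment is visible in fibroblasts, the TUBB3 segment is thickest in ESC3 (8.87%) and thinnest in ESC7 (2.01%), and TUBB1 is too scarce to be seen.

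Summed over the 6 beta tubulin loci other than TUBB3, the FPKM was 1535 in fibroblasts, 2378 in ESC11, 2510 in ESC3 and 2180 in ESC7. With TUBB3 included, ESC3 exceeded ESC7 by 529.9 FPKM. TUBB3 supplied 37.7% of that excess, the TUBB locus 48.8% and TUBB2B 7.96%. As deposited, the excess was in absolute terms spread over TUBB and TUBB3, while in relative terms TUBB3 changed far more than the abundant isotypes. The split depended on the scaling. With every library scaled to the same sum, the TUBB locus (0.069) and TUBB2B (0.12) were slightly higher in ESC7 on the log2 scale, and TUBB3 was lower by -2.13. Summed alpha tubulin was 527 ± 10.4 FPKM in ESC3 and 511 ± 28.3 in ESC7, less apart than the spread between libraries of ESC7.

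The 3 neural marker genes were higher in fibroblasts than in the stem cells. PAX6 was at 10.6, 9.29 and 9.84 FPKM in fibroblasts, was listed at 0 in 8 of 9 ESC libraries, and reached 0.0393 FPKM in the remaining one, of ESC11. The groups that share a 0 cannot be ordered, and no fold is given against them. PAX6 passed the filter on low values only through the fibroblasts, so a lower value in the lines followed from its being admitted, and no test is given. The size of its difference was set by the pseudocount: in ESC3 it was -3.44 with a pseudocount of 1, -6.64 with 0.1 and -1.57 with 5. ESC3 and ESC7 were alike in listing PAX6 at 0 in every library, whatever their TUBB3 level.

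NES was at 30.1, 32.8 and 32.2 FPKM in fibroblasts. It was at 5.20, 5.56 and 5.94 in ESC11, 5.88, 6.08 and 6.46 in ESC3, and 6.41, 6.81 and 6.23 in ESC7. Fibroblasts stood apart, ESC3 overlapped with both other lines, and ESC7 lay above ESC11. NES fell relative to fibroblasts in each line, with differences of -2.32, -2.20 and -2.13 in ESC11, ESC3 and ESC7 (limma adjusted p = 3.931e-11, 5.719e-11 and 7.535e-11). It was above ESC11 by 0.19 in ESC7 (limma adjusted p = 0.03044), a direction that turned with every library scaled to the same sum (-0.73), and by 0.12 in ESC3 (95% interval -0.01 to 0.25; limma adjusted p = 0.1617). As a description, the mean of ESC7 was 1.06 times that of ESC3, and their libraries overlapped.

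NCAM1 was at 59.8, 59.0 and 60.1 FPKM in fibroblasts, 3.63, 3.41 and 3.09 in ESC11, 3.84, 3.49 and 3.86 in ESC3, and 2.45, 2.86 and 3.08 in ESC7. ESC7 was the lowest group, by a narrow margin, and ESC3 overlapped with ESC11. NCAM1 fell relative to fibroblasts in each line, with differences of -3.79, -3.68 and -4.00 in ESC11, ESC3 and ESC7 (limma adjusted p = 4.389e-12, 5.385e-12 and 2.96e-12). Relative to ESC11 it was lower in ESC7 by -0.21 (limma adjusted p = 0.04728), and in ESC3 the difference was 0.11 (95% interval -0.04 to 0.27; limma adjusted p = 0.291). As a description, ESC3 held 1.33 times the level of ESC7, without overlap, at a level of less than 4 FPKM in both lines. On the log2 scale ESC7 minus ESC3 was -0.32 as deposited, -0.16 with a pseudocount of 5 and -0.47 with quantile normalization. With every library scaled to the same sum it was -0.08. Relative to the median of all loci it was -0.34 both as deposited and with that scaling. In bulk RNA, fewer cells of a type and less RNA per cell cannot be told apart.

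**Figure D3:**
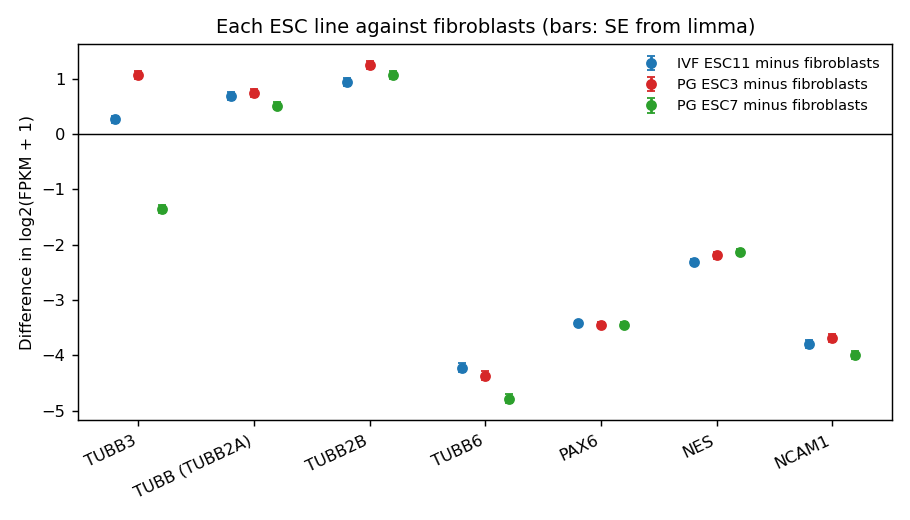
Difference of each ESC line from fibroblasts in log2(FPKM + 1) for the 7 genes, with bars for the standard error from limma and 1 colour per line. TUBB6, PAX6, NES and NCAM1 lie below 0 in all 3 lines, TUBB2B and the TUBB locus above 0, and TUBB3 is the member whose lines fall on both sides (0.27, 1.07 and -1.36).

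Counted together, 4 of 7 genes were called lower in ESC11 than in fibroblasts and 0 higher, where 15.5% of all tested loci were called lower and 27.4% higher. In ESC3, 4 of the 6 genes other than TUBB3 were called lower and 1 higher, against 15.5% and 28.6% of loci. In ESC7 the same counts were 4 and 1, against 14.3% and 29.2%. The 4 lower genes were TUBB6, PAX6, NES and NCAM1 in each line, and the call of PAX6 was fixed by the filter, which it passed through the fibroblasts alone. These genes were chosen with results of these data known, so the counts describe the genes and do not set them apart from other loci.

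Between lines, 0 of 6 genes were called in ESC3 against ESC11 by limma, where 2.48% of loci were, and 1 had an unadjusted p under 0.05, against 35.2% of loci. In ESC7 against ESC11, 0 of 6 were called where 2.94% of loci were, and 4 had an unadjusted p under 0.05, against 41.3% of loci. PAX6 is among the 6 but was listed at 0 in 8 of 9 ESC libraries, so it could not have been called. With the adjusted p alone, 1 gene (TUBB2B) was higher in ESC3, and in ESC7 NES was higher while TUBB6 and NCAM1 were lower. The corresponding shares of all tested loci were 23.0% and 30.9%.

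To see whether other tubulins followed TUBB3, the tubulin genes that are not among the 7 were compared between ESC7 and ESC3. Of 13 such loci 12 were tested, and 1 was called lower in ESC7 and 0 higher, where 1.04% of all tested loci were called lower and 2.34% higher. The called locus was TUBA1D, an alpha tubulin. It passed the filter on low values through ESC3 alone, so it had to be lower elsewhere, and its values are a description. TUBA1D was at 7.46, 5.35 and 4.96 FPKM in ESC3 and 0.517, 0.839 and 0.733 in ESC7. Its difference was -2.02 ± 0.12 (SE). TUBA1D was 0 in fibroblasts and 0.592 ± 0.11 FPKM in ESC11, so ESC3 was the one group with more than 1 FPKM. The locus adjoins TUBA4A and the gene-name reference gives its identifier as TUBA4A, which makes its identity uncertain. Of the other 11 tubulins 0 were called by limma, with 2 higher and 3 lower at an unadjusted p under 0.05, where 27.0% and 20.7% of loci were.

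With the adjusted p alone, 2 of the 12 tubulins were higher in ESC7 and 3 lower, TUBA1D included, against 22.9% and 17.1% of loci. The abundant alpha tubulin TUBA1C ran opposite to TUBB3, at 103 ± 2.01 FPKM in ESC3 and 170 ± 4.83 in ESC7 (0.71 ± 0.04, limma adjusted p = 9.452e-07). The gamma tubulin TUBG1, which nucleates microtubules, also had a higher value in ESC7 (0.64, limma adjusted p = 0.004149), but its row is an unannotated locus of 675 bp inside the span of the TUBG2 locus, so its identity is uncertain. TUBA1B (-0.39, limma adjusted p = 0.002827) and the brain-enriched isotype TUBB4A (-0.27, limma adjusted p = 0.01387) were lower, both under the minimum for a call. The TUBA1B locus spans 128780 bp, so its value may hold fragments of more than that gene. The alpha tubulin TUBA1A was not found by symbol or description and was not analysed here. TUBB4B, a broadly expressed isotype, differed by -0.03 (limma adjusted p = 0.7415).

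The median difference of the 12 tubulins was -0.03, beside 0.02 over all tested loci. Including the 4 tubulins described above, the median of 16 was -0.15 and 12 were below 0. No other tubulin reached the size of the TUBB3 difference; after TUBA1D, the next were TUBA1C and TUBG1, both of the opposite sign. Proteins that fold and assemble tubulin showed 0 calls of 24 tested by limma, with 1 higher and 11 lower at an unadjusted p under 0.05, where 27.0% and 20.7% of loci were, and a median of -0.05. With every library scaled to the same sum, 0 of the 24 were lower at the adjusted p and the median was 0.24, beside 0.27 over all loci.

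**Figure D4:**
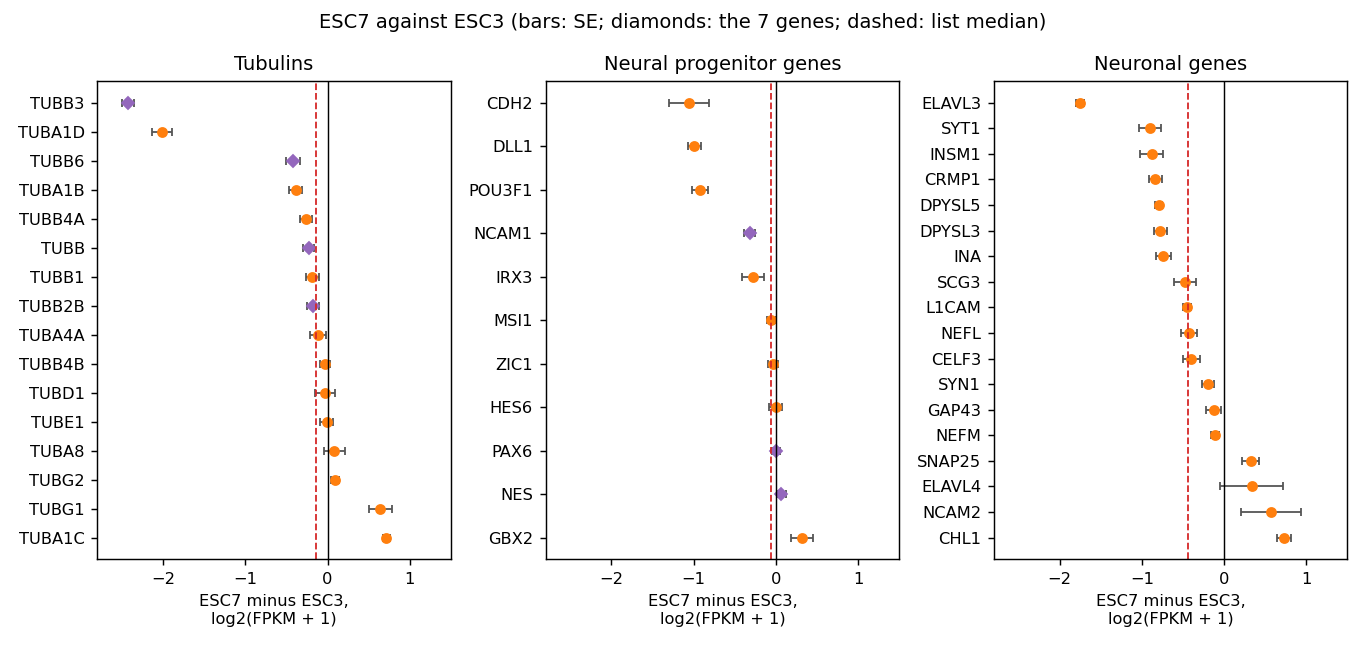
Difference between ESC7 and ESC3 in log2(FPKM + 1), ESC7 minus ESC3, for each tested gene of 3 lists, 1 panel per list, with bars for the standard error from limma, diamonds for the 7 genes described and a dashed line at each list's median. TUBB3 (-2.43) and TUBA1D (-2.02) lie far below the other tubulins, and the neuronal list has a lower median (-0.44) than the tubulins.

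Genes of the neural progenitor list other than PAX6, NES and NCAM1 were compared between ESC7 and ESC3 as well. Of 21 such loci 13 were too low to be tested, and SOX1, HES5 and PAX7 were not analysed here. Of the 8 tested, 1 was called lower in ESC7 and 0 higher, where 1.04% and 2.34% of all loci were, with a median of -0.17. The list gave 3 lower calls with quantile normalization and 0 with every library scaled to the same sum. The called gene was CDH2, N-cadherin, which neural and mesenchymal cells use to adhere, at 53.1, 70.0 and 58.6 FPKM in ESC3 and 34.4, 18.2 and 36.3 in ESC7 (-1.06 ± 0.24, limma adjusted p = 0.005771). Fibroblasts had 525 ± 96.3 FPKM, and the call was lost without ESC7 replicate 2 (-0.75) or without ESC3 replicate 2 (-0.95). At the adjusted p alone, DLL1, a Notch ligand (-0.99, limma adjusted p = 9.668e-06), and the POU factor POU3F1 (-0.92, limma adjusted p = 4.144e-05) were also lower in ESC7. MSI1, an RNA-binding protein of neural stem cells, was at 53.2 FPKM in ESC3 and 51.2 in ESC7 (-0.05, limma adjusted p = 0.5291).

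Neuronal genes, which act after the progenitor stage, were mostly lower in ESC7 than in ESC3. Of 18 tested, 1 was called lower and 0 higher, where 1.04% and 2.34% of all loci were. At the adjusted p alone 11 were lower and 2 higher, against 17.1% and 22.9% of loci. The 18 include INSM1 and CELF3, which passed the filter on low values only with the help of ESC3 libraries and reached it in 0 of ESC7. A lower value in ESC7 was thus favoured by their being admitted. Their median difference was -0.44. These list counts depend on the scaling. With every library scaled to the same summed FPKM, 1 of 19 tested neuronal genes was lower and 1 higher at the adjusted p alone. The share of all loci under that scaling is not given here. That scaling also widened the standard error, for TUBB3 from 0.07 to 0.35, so the lower count does not by itself show smaller differences. Relative to the median of all loci the list stood at -0.46 both as deposited and with that scaling, -0.23 with a pseudocount of 5, -0.25 with no low-value filter, -0.62 with a filter at 5 FPKM and -0.63 with a pseudocount of 0.1.

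The called neuronal gene was ELAVL3, an RNA-binding protein of postmitotic neurons, and its levels had the same order among the lines as those of TUBB3. ELAVL3 was at 24.2, 24.0 and 24.6 FPKM in ESC3, 13.9, 14.3 and 14.1 in ESC11, and 6.97, 6.01 and 6.58 in ESC7 (-1.75 ± 0.05 for ESC7 against ESC3, limma adjusted p = 4.976e-09). Unlike TUBB3 it was almost without signal in fibroblasts, at 0.0200 ± 0.017 FPKM. The collapsin response mediators DPYSL5 (-0.80, limma adjusted p = 9.293e-07) and CRMP1 (-0.84, limma adjusted p = 2.641e-05) and the synaptic vesicle protein SYT1 (-0.90, limma adjusted p = 0.0004188) were lower in ESC7 below the minimum for a call. The adhesion molecule CHL1 (0.73, limma adjusted p = 0.0001173) and the synaptic SNAP25 (0.32, limma adjusted p = 0.02889) were the 2 in the opposite direction.

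Of 17 tested microtubule-associated proteins, 2 were called lower in ESC7 and 0 higher, and at the adjusted p alone 6 were lower and 3 higher. Over all loci 1.04% were called lower and 2.34% higher, and 17.1% and 22.9% passed at the adjusted p alone. With every library scaled to the same sum, 1 of 18 was called lower and no further one passed at the adjusted p. Relative to the median of all loci, the list median was -0.12 as deposited and -0.10 with that scaling. STMN2, a microtubule-destabilising protein of growing axons, was at 3.35 ± 0.60 FPKM in ESC3 and 0.299 ± 0.060 in ESC7 (-1.74 ± 0.12, limma adjusted p = 2.748e-06). Fibroblasts had the highest STMN2 level, 19.3 ± 1.98 FPKM. DCLK1, a doublecortin-like kinase, was called lower (-1.01 ± 0.20, limma adjusted p = 0.002894), but not without ESC3 replicate 1 (-0.90), ESC3 replicate 2 (-0.83) or ESC7 replicate 1 (-0.96). MAPT, the tau protein, was higher in ESC7 (0.76, limma adjusted p = 9.158e-05).

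In 3 further lists the genes called were higher in ESC7, 1 of 5 tested glial genes, 1 of 8 neural crest genes and 1 of 2 mesendoderm genes, where 2.34% of loci were called higher. SLC1A3, a glutamate transporter of radial glia and astrocytes, was called higher in ESC7 (1.27, limma adjusted p = 4.062e-07), as were SOX9 of the neural crest list (1.19, limma adjusted p = 2.768e-06) and GATA6, an endoderm factor (1.08, limma adjusted p = 0.0002392). GATA6 was under the minimum for a call without ESC3 replicate 1 (0.96). With a pseudocount of 5 in place of 1, which gives low levels less weight, the differences between ESC7 and ESC3 of TUBA1D (-0.93), STMN2 (-0.65), CDH2 (-0.96), DCLK1 (-0.71), SOX9 (0.49) and GATA6 (0.41) were all under the minimum. With every library scaled to the same sum, CDH2 (-0.76) and DCLK1 (-0.73) were not called. Components of the REST complex, which represses neuronal genes, showed 0 calls of 10 tested by limma (3 higher and 4 lower at an unadjusted p under 0.05, against 27.0% and 20.7% of loci), and REST itself differed by -0.07 (limma adjusted p = 0.4937).

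Markers of pluripotency and of fibroblasts and feeders were set beside these values. Of 10 pluripotency markers 0 were called between ESC7 and ESC3 by limma, but 8 were lower in ESC7 at an unadjusted p under 0.05 and the same number at the adjusted p, where 17.1% of loci were. With quantile normalization 5 were lower at the adjusted p. With every library scaled to the same sum 0 were, and the median turned from -0.19 to 0.11. Relative to the median of all loci it was -0.21 as deposited and -0.16 with that scaling. Their summed level was 3008 to 3053 FPKM in ESC3 and 2713 to 2763 in ESC7. OTX2, a homeobox factor of both primed pluripotent cells and the anterior neural plate, was lower by -0.89 (limma adjusted p = 2.41e-07). Of 12 fibroblast and feeder markers 0 were called, where 1.04% of loci were called lower and 2.34% higher. At an unadjusted p under 0.05, 4 were higher in ESC7 and 0 lower, against 27.0% and 20.7% of loci. The sums of these markers overlapped (28.1 to 46.1 FPKM in ESC3, 32.8 to 44.4 in ESC7). Their median difference was 0.022, beside 0.023 over all loci. The part of the pluripotency markers in the TUBB3 result was not tested.

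Against fibroblasts, the other genes of the neural lists had differences of both signs. Of the other 8 tested progenitor genes, 3 were called higher and 2 lower in ESC11. Among the 8 were MSI1 (5.51) and CDH2, which was at 48.4 FPKM in ESC11. MSI1, DLL1, POU3F1 and GBX2 passed the filter on low values through ESC libraries alone, and ZIC1 through the fibroblasts alone. The direction of these genes followed from their being admitted, so the counts are a description. Of 18 neuronal genes, 13 were called higher and 1 lower in each of the 3 lines. Over all loci, between 27.4% and 29.2% were called higher and between 14.3% and 15.5% lower. CELF3, CHL1, DPYSL5, ELAVL3, INA, INSM1, L1CAM, NEFL, NEFM, SCG3, SNAP25, SYN1 and SYT1 passed the filter on low values through ESC libraries alone. A higher value in the ESC libraries that admitted them followed from this, so the counts are a description. Examples in ESC11 were DPYSL5 (6.14), L1CAM (4.55) and ELAVL3 (3.89). The 1 lower gene was DPYSL3 (-4.20 in ESC11, limma adjusted p = 4.799e-12). With median-ratio scaling the ESC11 counts were 11 higher and 1 lower, and with quantile normalization 10 and 1. Over all loci the ESC11 calls then split 3504 higher to 3879 lower and 3605 to 3498.

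Of the 12 other tubulins, 5 were called higher and 1 lower in ESC11, 8 and 2 in ESC3, and 6 and 1 in ESC7, against the same shares of loci. TUBA8, called higher in each line, and TUBB1, called higher in ESC3, passed the filter on low values through ESC libraries alone. TUBA1D, also called higher in ESC3, passed through that line alone. Their direction followed from their being admitted, so the counts are a description. The balance of higher and lower calls depended on the scaling: with median-ratio scaling the counts were 3 and 2, 4 and 4, and 3 and 3, and with quantile normalization 3 and 1, 3 and 3, and 2 and 2. The balance over all loci moved too. As deposited, 63.8%, 64.9% and 67.1% of all calls in ESC11, ESC3 and ESC7 were higher. With median-ratio scaling the shares were 47.5%, 47.5% and 49.3%, and with quantile normalization 50.8%, 50.8% and 49.3%. The largest tubulin differences in ESC11 were those of TUBA4A (5.75, limma adjusted p = 1.937e-12) and TUBB4A (3.82, limma adjusted p = 4.944e-12). TUBA1B was the tubulin called lower there, at 721 ± 6.96 FPKM in fibroblasts and 263 ± 25.8 in ESC11. Of the 4 tubulins described above, TUBB3 was the one whose differences from fibroblasts had both signs.

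The loci beside TUBB3 were compared in the same way. The nearest named loci were TCF25 (-0.15 in ESC7 minus ESC3) and MC1R on one side and SPIRE2 (0.06) and DEF8 (0.26) on the other. MC1R was too low to be tested, at no more than 0.649 FPKM in any ESC library. As a description, its mean was 0.416 ± 0.27 FPKM in ESC3, 0.218 ± 0.040 in ESC11 and 0.0447 ± 0.019 in ESC7. That is the order of TUBB3 among the lines, near the floor of the measure. Its ESC3 libraries overlapped with those of ESC11 but not with those of ESC7, and fibroblasts were at 0.533 ± 0.13 FPKM. Within 500000 bp on each side, a window chosen after values had been seen, 0 of 26 tested loci were called by limma, where 1.04% of all loci were called lower and 2.34% higher, so a count of 0 is near the background. At an unadjusted p under 0.05, 8 were higher and 1 lower, against 27.0% and 20.7% of loci. The 26 had a median of 0.05 and a range from -0.15 to 0.73.

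The loci most like TUBB3 were ranked by the Pearson correlation of log2(FPKM + 1), as a description. Over all 12 libraries, which fall into 4 groups, the closest of 12741 named Ensembl loci were PAFAH1B3 (r = 0.979), MAGEL2 (0.972), SPHK2 (0.972), TP53I11 (0.970) and SLC1A5 (0.968). MAGEL2, an imprinted gene expressed from the paternal allele in mammals, was at 21.4 FPKM in ESC3, 14.9 in ESC11 and 0.596 in ESC7. Over the 9 ESC libraries, which fall into 3 lines, the closest of 12705 were C4ORF21 (0.997), RNMTL1 (0.997), TMEM261 (0.997), MCM3 (0.996) and OTX2 (0.995). With 3 line means to match, many loci reach a high value by the order of those means.

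The other 6 genes resembled TUBB3 little over the 12 libraries: r was 0.289 for the TUBB locus, 0.096 for TUBB2B, 0.094 for TUBB6, 0.074 for NCAM1, 0.004 for PAX6 and -0.036 for NES. Over the 9 ESC libraries it was 0.921 for the TUBB locus, 0.881 for NCAM1, 0.803 for TUBB6, 0.393 for TUBB2B, 0.074 for PAX6 and -0.457 for NES. Set beside the 5.47-fold excess of TUBB3 in ESC3 over ESC7, the ratios of the TUBB locus, TUBB2B, NCAM1 and TUBB6 lay between 1.13 and 1.38. PAX6 was listed at 0 in both lines and NES overlapped between them. With every library scaled to the same sum, the TUBB locus (0.069) and TUBB2B (0.12) were slightly higher in ESC7 on the log2 scale, and TUBB3 was lower by -2.13.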

How the data were processed

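The authors deposited 1 table of FPKM values for 30012 loci in 12 libraries of polyA RNA, read as 100 bp paired ends. STAR 2.4.0b, Cufflinks 2.1.1 and the build Sscrofa10.2 are named, without roles, per the submitters' processing notes. Strandedness and the handling of multiply mapped fragments are not given in the sources used here. No counts were recovered, so depth is unknown and its precision cannot be given.

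Values were used as log2(FPKM + 1). Loci with at least 1 FPKM in at least 3 libraries were tested (18278). Group means of all 12 libraries were fitted with limma 3.58.1 (R 4.3.3) with a mean-variance trend, two-sided tests and Benjamini-Hochberg adjustment over all tested loci. A call needed an adjusted p under 0.05 and a log2 difference of at least 1. In simulated data of 18278 loci, 100 loci were changed by a log2 difference of 1.5 for ESC7 against ESC3, and 90% of these were recovered. The changed loci were drawn from those with a mean log2(FPKM + 1) above 3. Recovery at lower levels was not simulated.

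The 7 genes and the 13 lists were chosen with earlier results of these data known. Named from each list were genes called between ESC7 and ESC3 and up to 4 of the largest calls against fibroblasts. Further genes were named after their values were seen (DLL1, POU3F1, DPYSL5, CRMP1, SYT1, CHL1, SNAP25, MAPT, REST and OTX2). Alternatives covered pseudocounts, filters, scaling, variance settings, a replicate block and leaving out each library.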

Additional observations from a re-analysis of the deposited data

Results flagged for a closer look

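TUBB3 was set apart because its difference from the same fibroblast libraries had opposite signs in different lines. On the log2(FPKM + 1) scale it was 0.27 in ESC11, 1.07 in ESC3 and -1.36 in ESC7. Every ESC3 and ESC11 library was above every fibroblast library, and every ESC7 library was below. The difference between the lines was not tested, since the gene was chosen for it. With median-ratio scaling the ESC11 value was -0.16, so the opposite signs that held in each scaling tried are those of ESC3 and ESC7.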

How the results depend on the processing

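Differences of the 7 genes from fibroblasts kept their direction under the alternatives except that of TUBB3 in ESC11 (-0.16 with median-ratio scaling). TUBB3 between ESC7 and ESC3 stayed between -2.49 and -2.37 when 1 library was left out and was -2.39 with quantile normalization and -2.13 with equal sums. Scaling to the same summed FPKM moves the median of all loci by -1.16 for ESC3 against ESC11 and turned these values: TUBB3 (-0.53), the TUBB locus (-1.29), TUBB2B (-1.03), NES (-1.05) and NCAM1 (-0.97) in ESC3 against ESC11, TUBB2B (-0.91) and NES (-0.73) in ESC7 against ESC11, and the TUBB locus (0.069) and TUBB2B (0.12) in ESC7 against ESC3. With quantile normalization the TUBB locus was at -0.83 in ESC3 against ESC11, TUBB2B at -0.04 in ESC7 against ESC11 and NES at -0.04 in ESC7 against ESC3. Relative to the median of all loci under equal sums, TUBB3 was 0.63 above ESC11 in ESC3.

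Called loci numbered 7848, 8062 and 7941 in ESC11, ESC3 and ESC7 against fibroblasts (leaving out 1 library: 7045 to 7852, 7246 to 8070 and 7146 to 7935). A pseudocount of 5 gave 4521, 4714 and 4494, no minimum difference 15432, 15517 and 15518, and equal sums 12075 in ESC11. Calls in ESC11 split 5008 higher to 2840 lower as deposited, 3605 to 3498 with quantile normalization and 3504 to 3879 with median-ratio scaling. ESC3 against ESC11 had 454 (362 to 480), ESC7 against ESC11 537 (428 to 567) and ESC7 against ESC3 618 (565 to 620). In that order, a pseudocount of 0.1 gave 747, 904 and 1148, a pseudocount of 5 gave 264, 248 and 219, Ensembl loci alone 157, 209 and 321, and no minimum difference 4210, 5647 and 7302. Equal sums gave 12577 and 6179 for the first pair, and a filter at 5 FPKM 387 for the last. ESC7 against ESC3 split 428 higher to 190 lower, 348 to 244 with quantile normalization and 652 to 99 with equal sums.

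Between ESC7 and ESC3, tubulins other than TUBB3 called were 1 (0 to 1 without a library), 0 with a pseudocount of 5 or a filter at 5 FPKM, and 7 with no minimum difference. Neural progenitor and neuronal genes called were 2 (1 to 4), 7 with a pseudocount of 0.1, 1 with 5, 6 with quantile normalization, 1 with equal sums and 16 with no minimum. Neuronal genes lower at the adjusted p were 11 (10 to 12), 5 with a filter at 5 FPKM and 1 with equal sums. Tubulins other than the 7 genes lower at the adjusted p were 3 (1 to 3) and 1 with equal sums. Equal sums also widened the standard error, for TUBB3 between these lines from 0.07 to 0.35. The cause of these shifts was not tested. Same-numbered libraries did not deviate together (r from -0.09 to 0.09 over 18 pairs), and with the replicate number as a block, 615 loci were called between ESC7 and ESC3 and no count above moved by more than 1.5 times.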
